A study of Mus musculus with 16 samples.

Results

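Wnt signaling was described here through 10 genes measured in single mammary cells: the ligands *Wnt4* and *Wnt5a*, the receptors *Fzd1*, *Lrp5* and *Lrp6*, the R-spondin receptors *Lgr4* and *Lgr5*, the secreted inhibitors *Sfrp1* and *Sostdc1*, and the pathway target *Axin2*. They were chosen by name, with earlier results of these data known, and all 10 have a row among the 17721 genes of the count table. Each gene was followed across cell classes and across nipple, duct and terminal end bud (TEB) fragments. The study itself named *Lgr5* and *Sfrp1* as signature genes of nipple basal cells from these same samples, so their direction here is not independent evidence.

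The question was how mammary cells differ between places in the pubertal gland. Single fragments were dissected from mammary glands of C57BL/6 mice 5 weeks of age that carried K14-Cre and R26-mTmG, where a keratin 14 promoter drives Cre and thereby switches a membrane color reporter in basal cells and their descendants. All groups share this genotype and age, and none was treated. There were 4 nipple, 6 duct and 6 TEB fragments. The labels do not say which mouse gave each fragment, so p-values measure the spread between fragments, which may share mice.

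Cells were sorted into wells with ERCC spike-in RNA, and the 3' ends of transcripts were counted with unique molecular identifiers (UMIs), so that 1 UMI stands for 1 captured molecule of any isoform with that 3' end. The table holds 1419 cells, of which 1317 passed its limits: 342 nipple, 501 duct and 474 TEB cells. Totals ran from 1856141 to 5233122 UMIs per fragment. The wells used 95 barcode numbers, and all 95 occurred in 2 or more fragments, as plates reuse them. Clustering gave 294 basal-like cells, 426 ER+ luminal-like cells (estrogen receptor positive), 178 ER- luminal-like cells, 252 fibroblast-like cells, 78 myeloid-like cells and 89 unnamed cells. With all genes of the Wnt list left out of the clustering, 1317 of 1317 cells kept their class.

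Nipple and duct basal-like cells fell in 1 cluster, with 96 nipple, 115 duct and 1 TEB cell. TEB basal-like cells formed another, with 81 TEB cells and 1 nipple cell, whose leading genes include *Sostdc1* itself. That TEB cluster scored higher on a list of Schwann cell genes (mean z-score 1.41) than on the basal list (0.917). Over all 82 TEB basal-like cells *Krt14* had a UMI in 72%, against 100% in nipple and duct, and *Krt5* in 78%, against 99% and 100%. *Acta2* had one in 98.8%, against 94.8% and 100%, while *Trp63* was more often seen in TEB, in 63.4% against 13.4% and 17.4%. The summed basal markers had a median of 6459 CPM in TEB, 19070 in nipple and 23390 in duct, where CPM is the UMI count scaled to a common library total. Depth moved as well, with a median of 44192.5 UMIs (spike-ins included) per basal-like cell in TEB, 23146 in duct and 21856 in nipple, so shares of cells with a UMI are also given with every cell thinned to 5000 UMIs.

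Wnt ligands are secreted proteins that bind Frizzled receptors together with the coreceptors LRP5 and LRP6, and in the canonical branch this stabilizes beta-catenin, which turns on targets such as *Axin2*. R-spondins act through LGR4 and LGR5 to keep Frizzled receptors on the cell surface, whereas SFRP proteins bind Wnt ligands and the Sostdc1 protein binds LRP coreceptors. In the mammary gland *Wnt4* is known as a ligand made by hormone receptor positive luminal cells, and *Wnt5a* as a ligand that mostly signals without beta-catenin.

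The genes differed in the class that held most of their UMIs. For each class, UMIs were summed per fragment, divided by the total of that sum and averaged over fragments, and these levels are described without a test. *Wnt4* (chr4:137277489-137299726, plus strand, GRCm38) was highest in ER+ luminal-like cells at 32.83 ± 16.69 CPM (SD, n = 16), which held 70.9% of its 780 UMIs, and stood at 9.802 ± 14.97 in fibroblast-like and 7.312 ± 8.832 in basal-like cells. *Wnt5a* (chr14:28504750-28527448, plus strand) was also highest in ER+ luminal-like cells at 69.58 ± 57.19 CPM, with 67.6% of 2047 UMIs, followed by basal-like cells at 34.02 ± 25.49 and fibroblast-like cells at 15.48 ± 14.2. ER- luminal-like cells, the other luminal class, held 2.18% of *Wnt4* and 0.293% of *Wnt5a* UMIs. An unnamed cluster of 70 cells gave another 209 *Wnt5a* UMIs, a pooled 80.05 CPM. Mast cell and endothelial genes led that cluster, but it also carried luminal markers (*Krt8* at 3865 CPM, *Cited1* at 1913 and *Prlr* at 486), so which of its cells held *Wnt5a* is not known.

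The receptors were spread more widely. *Fzd1* (chr5:4753839-4758035, minus strand), a Frizzled receptor, was highest in fibroblast-like cells at 40.23 ± 37.89 CPM, where 50.8% of its 658 UMIs lay, then in ER- luminal-like cells at 24.69 ± 24.88 and basal-like cells at 16.97 ± 14.3, and low in ER+ luminal-like cells at 2.149 ± 3.491. Fibroblast-like cluster 10, with 24 cells, held 155 of these UMIs. *Lrp5* (chr19:3584828-3686564, minus strand) had only 387 UMIs and lay between 4.337 ± 5.12 CPM in fibroblast-like and 11.6 ± 10.2 in ER+ luminal-like cells. *Lrp6* (chr6:134446476-134566965, minus strand), its close relative, was at 58.41 ± 23.65 CPM in basal-like cells, 46.56 ± 27.98 in fibroblast-like cells and 20.43 ± 10.36 in ER+ luminal-like cells. *Lgr4* (chr2:109917647-110014257, plus strand) was mainly a basal gene, at 50.81 ± 28.69 CPM in basal-like cells against 11.95 ± 10.59 in ER- luminal-like cells, with 67.9% of 700 UMIs. *Lgr5* (chr10:115450311-115587780, minus strand) was rare, with 75 UMIs in all kept cells, of which 52 were in basal-like cells.

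*Sfrp1* (chr8:23411502-23449632, plus strand) was at 207.3 ± 169.6 CPM in fibroblast-like cells, which held 79.3% of 3264 UMIs, and at 67.91 ± 107.9 in basal-like cells with 18.1%. *Sostdc1* (chr12:36314139-36318452, plus strand) was almost wholly basal, with 95.2% of 949 UMIs and 88.18 ± 104.5 CPM there. *Axin2* (chr11:108920349-108950783, plus strand) had 121 UMIs, 41.3% in fibroblast-like, 38.8% in basal-like and 19.8% in ER+ luminal-like cells, and 0 in the ER- luminal-like and myeloid-like classes. In the order of the 5 classes, a gap between neighbours was larger than both SDs only for *Wnt4* between ER+ luminal-like and fibroblast-like cells, *Wnt5a* between fibroblast-like and myeloid-like cells, *Fzd1* between its basal-like and ER+ levels and *Lgr4* between its basal-like and ER- levels. Even there the ranges of fragments overlapped. *Wnt5a*, *Lgr5* and *Axin2* each overlap an annotated gene on the other strand. Since the strand setting of the counting is not stated, reads of the pairs cannot be told apart. The gene over *Lgr5*, *A930009A15Rik*, is annotated as protein coding and has a row of its own with 4 UMIs.

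**Figure D1:**
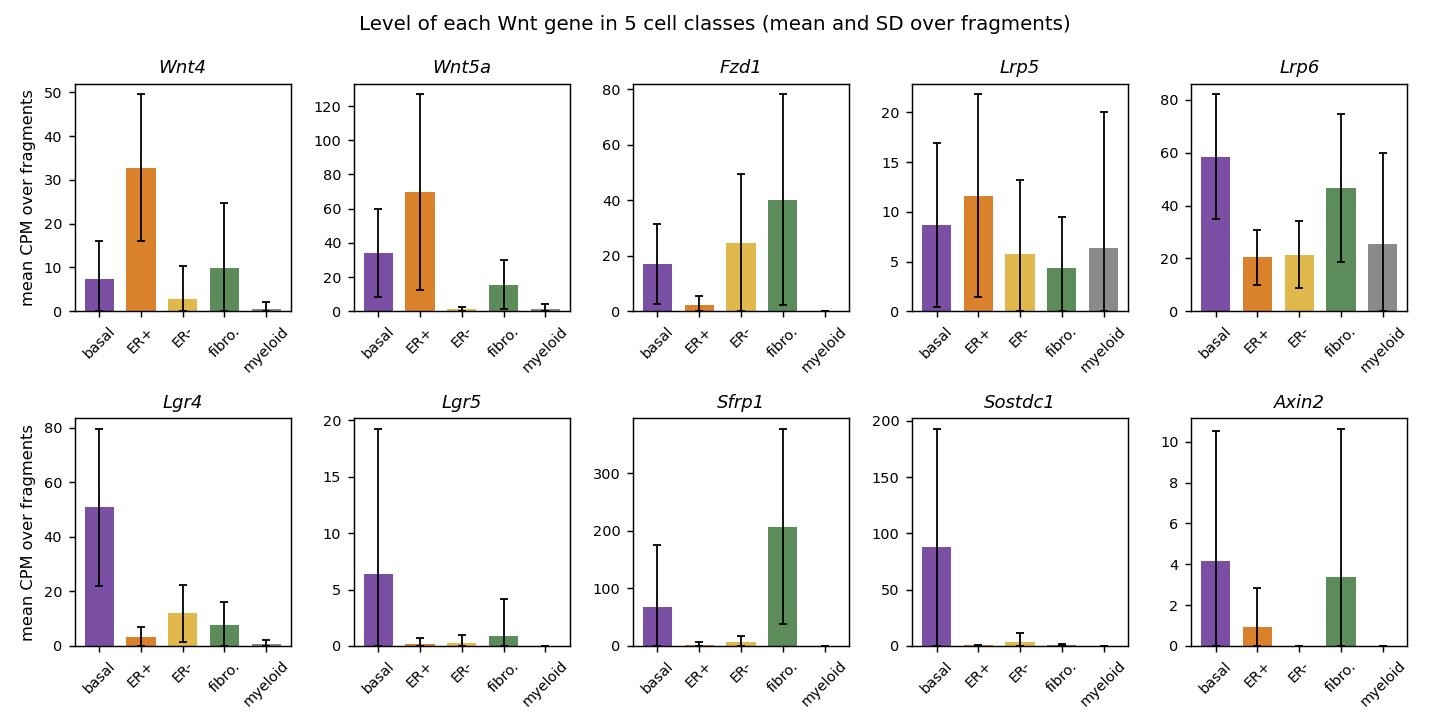
Mean CPM over fragments (bars) of each of the 10 Wnt genes in basal-like, ER+ luminal-like, ER- luminal-like, fibroblast-like and myeloid-like cells, with 1 SD as error bars, drawn down to 0 where the SD is larger than the mean; each panel has its own scale. Wnt4 and Wnt5a stood highest in ER+ luminal-like cells, Lgr4, Lgr5 and Sostdc1 in basal-like cells, and Sfrp1 and Fzd1 in fibroblast-like cells.

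Location was compared next, within each class, on CPM with TMM scaling. In basal-like cells 6 of the 10 genes passed the filter on low counts, and 3 of these 6, *Sfrp1*, *Sostdc1* and *Wnt5a*, changed across the 3 locations by edgeR's quasi-likelihood test with Benjamini-Hochberg adjustment over all genes (adjusted p under 0.05). By that rule 20.6% of all 7316 genes tested changed. *Sfrp1* was higher in nipple than in duct and TEB, while *Sostdc1* and *Wnt5a* were higher in TEB than in nipple. *Fzd1*, *Lrp6* and *Lgr4* did not pass the test, and *Wnt4*, *Lrp5*, *Lgr5* and *Axin2* had too few UMIs for the filter. In bulk sums of this kind, fewer expressing cells and less RNA per cell cannot be told apart.

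**Figure D2:**
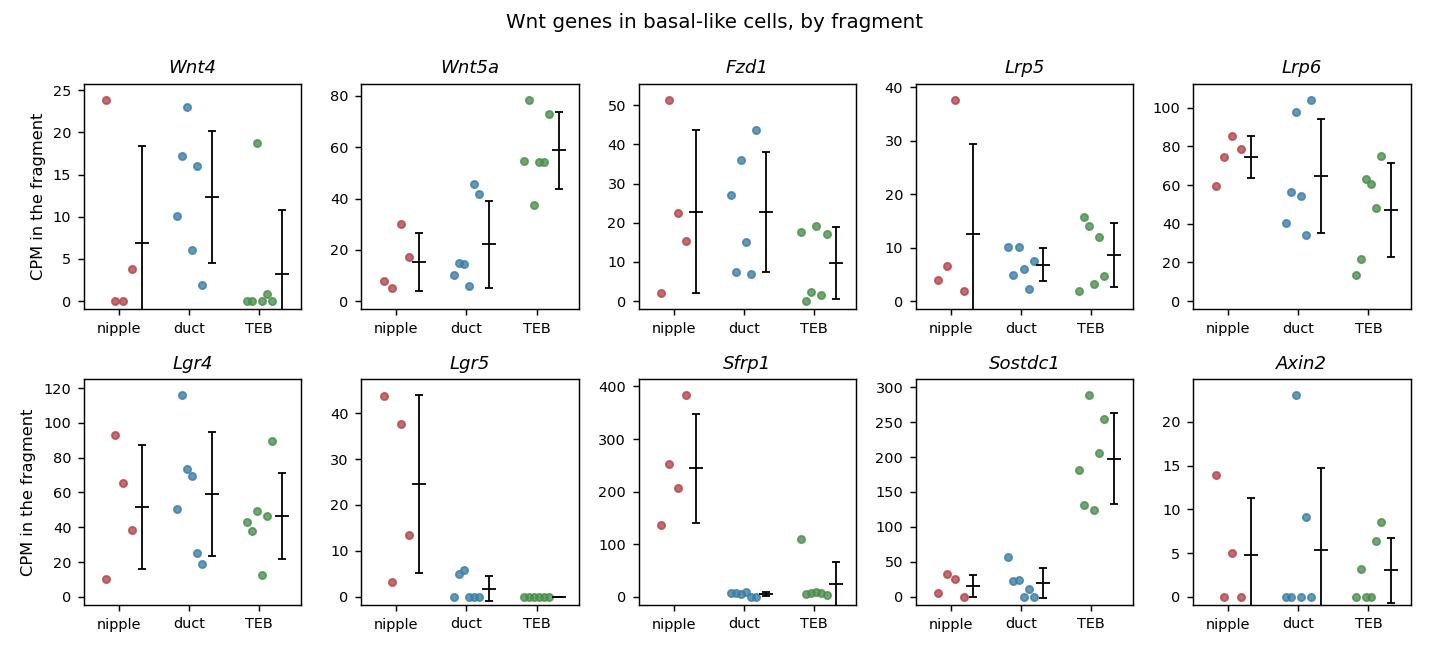
CPM of each of the 10 Wnt genes in the basal-like cells of each fragment (points) of nipple (4), duct (6) and TEB (6), with the mean and SD beside the points; SD bars are clipped at the bottom of the axis and each panel has its own scale. Sfrp1 in nipple lies between 137.3 and 382.8 CPM, and TEB fragment 31 at 109.2 CPM is the only other point above 10 CPM.

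Among the ligands, *Wnt5a* in basal-like cells was at 7.96, 4.974, 30.14 and 17.23 CPM in the 4 nipple fragments. Duct fragments ran from 6.029 to 45.74 CPM with a median of 14.58, and TEB fragments from 37.46 to 78.52 with a median of 54.49. Every TEB fragment was above every nipple fragment, while duct overlapped both. The log2 difference of nipple minus TEB was -1.98 ± 0.65 (SE; adjusted p = 0.028, edgeR), in a comparison where 18.7% of genes changed. Duct minus TEB was -1.37 ± 0.54 (adjusted p = 0.11) and nipple minus duct -0.6 ± 0.64 (adjusted p = 0.71). The nipple and TEB call is fragile: leaving out nipple fragment 21, 22 or 24 or TEB fragment 32 or 43 raised the adjusted p to as much as 0.098. With cells thinned to 5000 UMIs *Wnt5a* had too few UMIs in basal-like cells to be tested. An estimate of UMIs from other wells gives 48.5 of its 231 TEB UMIs, and their part in the difference was not tested.

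*Wnt4* was sparse in basal-like cells, with 14 UMIs in nipple, 36 in duct and 9 in TEB. The pooled rate was 12.45 CPM in duct (exact 95% Poisson interval 8.719 to 17.23, counting error only) and 2.411 CPM in TEB (1.102 to 4.576), a ratio of 5.163 (2.44 to 12.19). The estimate from other wells is 10.5 UMIs in TEB, above the 9 observed, so the TEB level is not told from background. All 6 duct fragments had a UMI, against 2 of 4 nipple and 2 of 6 TEB fragments, and 8 of the 9 TEB UMIs came from 1 cell of fragment 33. Tested with no filter on low counts, *Wnt4* had an adjusted p of 0.48 across locations in edgeR.

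The receptors gave no difference beyond the spread of fragments. *Fzd1* was at 1.99, 51.4, 22.61 and 15.31 CPM in nipple, between 6.861 and 43.56 in duct (median 21.03), and in TEB from 0 to 19.18, with a median of 9.718. The locations overlapped, and duct minus TEB was 1.23 ± 0.83 on the log2 scale (adjusted p across locations 0.5, edgeR). *Lrp6* was at 59.7, 74.61, 85.41 and 78.48 CPM in nipple, from 34.31 to 104.2 over duct fragments (median 55.45) and 13.66 to 75.03 over TEB fragments (median 54.34). Nipple fragments were the least scattered, and nipple minus TEB was 0.64 ± 0.45 (adjusted p across locations 0.54). *Lrp5* had 22, 19 and 33 UMIs in nipple, duct and TEB, at pooled rates of 10.11, 6.57 and 8.84 CPM whose intervals overlapped.

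The R-spondin receptors parted. *Lgr4* was present throughout, at 9.95, 92.85, 65.31 and 38.28 CPM in nipple, 18.94 to 115.7 over duct fragments (median 59.97) and 12.79 to 89.27 over TEB fragments (median 44.64). Nipple minus TEB was 0.12 ± 0.54 on the log2 scale, with an adjusted p of 0.9 across locations in edgeR. *Lgr5*, in contrast, had 22, 2, 15 and 7 UMIs in the 4 nipple fragments, 0 to 4 in duct fragments with a median of 0, and 0 in all 6 TEB fragments. All 4 nipple fragments thus held *Lgr5* UMIs, against 2 of 6 duct fragments. The pooled nipple rate was 21.13 CPM (15.47 to 28.19), 10.19 times the duct rate (4.339 to 29.19). It was 26.3 times a floor of 3 UMIs over all TEB fragments, a ratio that leaves out the interval of the nipple rate. Tested with no filter, *Lgr5* had an adjusted p of 0.00053 across locations, 0.00067 for nipple minus TEB and 0.14 for nipple minus duct in edgeR. That fit gives smaller p-values than the filtered one. In it the edgeR adjusted p of *Sfrp1* across locations went from 6.1e-05 to 5.8e-18. Its nipple minus TEB difference hardly moved, from 3.36 ± 0.73 to 3.39 ± 0.49. The *Lgr5* values are therefore not set beside those of the filtered tests.

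Few cells carried these UMIs. *Lgr5* had a UMI in 13 of 97 nipple basal-like cells (13.4%, exact binomial interval 7.33 to 21.8%), in 5 of 115 duct cells (4.35%) and in 0 of 82 TEB cells, which allows a share of cells with a UMI of up to 3.66% when 3 counts are taken as the limit of a count of 0. The myeloid-like cells, which should lack the gene, had it in 1 of 78 (1.28%) at a median of 18966 UMIs, against 25194 in basal-like cells. One nipple cell held 13 of the 46 nipple UMIs, and after thinning the share was 9.28% in nipple and 0 in duct and TEB. Of the 13 nipple cells, 7 also had *Sfrp1* (53.8%), close to the 60.7% of the other nipple basal-like cells. Outside the basal class, *Lgr5* had 12 UMIs in 1 TEB and 5 in 1 duct fibroblast-like cell, 0 in 116 nipple fibroblast-like cells, and 3, 2 and 1 UMIs in all ER+ luminal-like, ER- luminal-like and myeloid-like cells.

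Among the inhibitors, *Sfrp1* was at 137.3, 252, 206 and 382.8 CPM in nipple basal-like cells. In duct it ran from 0 to 9.043 CPM with a median of 6.252, and in TEB from 3.799 to 109.2 with a median of 7.109. Every nipple fragment was above every duct and TEB fragment. *Sfrp1* rose by 5.68 ± 0.88 on the log2 scale in nipple over duct (adjusted p = 0.00037, edgeR; 6.29% of genes changed in that comparison) and by 3.36 ± 0.73 over TEB (adjusted p = 0.0025). TEB fragment 31 stood apart at 109.2 CPM, with 56 of the 77 TEB UMIs in 6 of its 13 cells, and without it nipple minus TEB was 5.19 and duct minus TEB went from -2.33 ± 0.88 (adjusted p = 0.11) to -0.49.

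Fibroblast genes were also higher in nipple. The summed level of 8 fibroblast markers, all 8 detected at each location, was 959.9 to 1914 CPM in nipple basal-like cells, 311.4 to 512.9 in duct and 389.7 to 613.5 in TEB. This rise was not limited to basal-like cells. In nipple the sum was 897.7 to 2228 CPM in ER+ and 905.5 to 1527 in ER- luminal-like cells, above all their duct and TEB fragments. The part of these markers in the *Sfrp1* difference was tested only by leaving cells out. In basal-like cells with at most 1000 CPM of these markers, an alternative added after the data were seen that left 26 nipple cells in 2 fragments, nipple minus duct was 4.92 (adjusted p = 0.0035) and nipple minus TEB 2.59 (adjusted p = 0.062). An estimate of UMIs from other wells gives 40.2 of the 503 nipple UMIs. The 11 keratinocyte markers with a row summed to 1001 to 1325 CPM in nipple, 1457 to 3073 in duct and 240.5 to 762.8 in TEB basal-like cells, so they too were higher in nipple than in TEB, and their part in the *Sfrp1* difference was not tested. In nipple 6 of these 11 were detected, with *Krt1*, *Krt77*, *Lor*, *Ivl* and *Calml3* at 0. Most of the sum was *Krt15*, at 1609 CPM in the cluster of nipple and duct basal-like cells, where the next of the 11, *Krt16*, was at 92.76. *Krt15* was also among the leading genes of that cluster. Leaving out 166 basal-like cells with 10 or more UMIs of both *Krt5* and *Krt18*, also added after the data were seen, left 14 duct cells in 2 fragments, and nipple minus duct was then 3.93 (adjusted p = 0.15).

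*Sostdc1* was highest in TEB. There it ran from 124.7 to 288 CPM with a median of 193.4, duct fragments from 0 to 57.35 with a median of 16.8, and nipple fragments were at 5.97, 33.16, 25.12 and 0 CPM. No TEB fragment overlapped any fragment of the other locations. Nipple minus TEB was -3.61 ± 0.8 (adjusted p = 0.0029) and duct minus TEB -3.41 ± 0.68 (adjusted p = 0.0017; 10.4% of genes changed), while nipple minus duct was -0.19 ± 0.82 (adjusted p = 0.94, edgeR). With classes taken from marker scores of single cells the differences from TEB were -3.18 (adjusted p = 0.074) and -3.13 (adjusted p = 0.066).

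*Axin2* UMIs were few in basal-like cells, with 9 in nipple, 20 in duct and 18 in TEB. Pooled rates were 4.135, 6.916 and 4.822 CPM with overlapping intervals, and with no filter the adjusted p across locations was 0.91 in edgeR. A difference in this target was not detectable at this depth. The median absolute log2 difference of nipple minus TEB was 1.61 over the 6 members tested, 0.85 over the 39 tested genes of the whole Wnt list and 0.64 over all genes tested. For nipple minus duct it was 0.19, 0.41 and 0.48. The members and the list were chosen with earlier results of these data known, so these medians only describe the genes chosen.

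**Figure D3:**
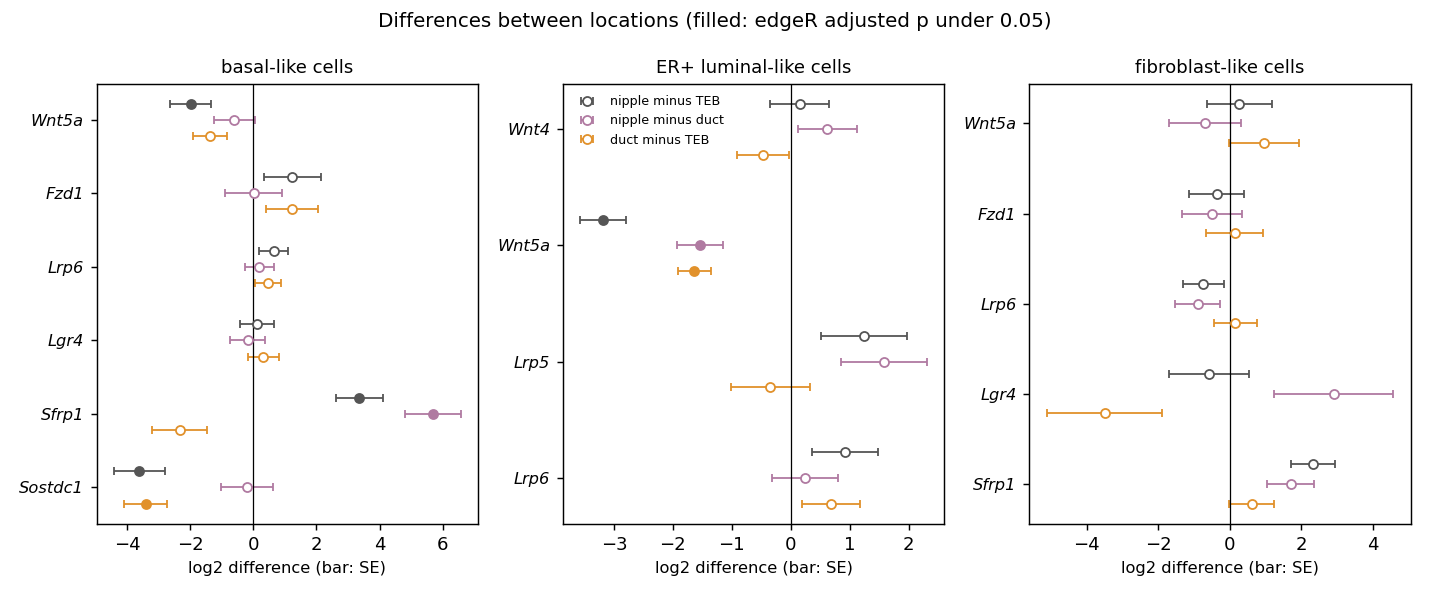
Log2 differences between locations (points, with 1 SE) for the Wnt genes that passed the filter in basal-like, ER+ luminal-like and fibroblast-like cells, for nipple minus TEB, nipple minus duct and duct minus TEB; filled points have an edgeR adjusted p under 0.05, and each panel has its own scale. In ER+ luminal-like cells all 3 differences of Wnt5a are filled, from -3.18 to -1.54, and in fibroblast-like cells no point is filled.

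In ER+ luminal-like cells *Wnt5a* was the gene that changed, 1 of 4 members tested, where 5.56% of all 8781 genes changed across locations. Nipple fragments were at 23.47, 13.01, 10.48 and 11.28 CPM, duct fragments at 27 to 71.66 with a median of 36.43, and TEB fragments at 97.26 to 188 with a median of 128.4. The 3 locations did not overlap, so that the level rose from nipple through duct to TEB. Nipple minus TEB was -3.18 ± 0.39 (adjusted p = 1e-06, edgeR; 5.57% of genes changed), duct minus TEB -1.64 ± 0.28 (adjusted p = 0.0011; 1.64%) and nipple minus duct -1.54 ± 0.39 (adjusted p = 0.027). Median depth was 46374 UMIs per cell in nipple, 31638 in duct and 40352.5 in TEB, and its part in the differences was tested only by thinning. The nipple and duct call was lost without duct fragment 32 or 51 or nipple fragment 23 or 24 (adjusted p up to 0.075), at resolution 1 (adjusted p = 0.062), with only these locations in the fit (adjusted p = 0.14) and with thinned cells, where the difference was -0.94 (adjusted p = 0.59). The 2 ER+ luminal-like clusters made up different parts of each location, since cluster 0 held 15 of 43 nipple, 102 of 211 duct and 113 of 172 TEB cells. Pooled *Wnt5a* was at 26.68, 49.76 and 133.7 CPM in nipple, duct and TEB cells of cluster 0 and 11.51, 36.18 and 136.6 in those of cluster 2. The part of the clusters in the difference was not tested. An estimate of UMIs from other wells gives 54.8 of the 1047 TEB UMIs.

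*Wnt4*, the other ER+ ligand, was at 46.94, 3.252, 52.42 and 53.16 CPM in nipple, 10.76 to 55.86 over duct fragments (median 19.65) and 25.08 to 52.61 over TEB fragments (median 35.08). The locations overlapped throughout, and nipple minus TEB was 0.15 ± 0.5 (adjusted p across locations 0.74, edgeR). *Lrp5* was at 25.28, 3.252, 15.73 and 41.88 CPM in nipple, 3.227 to 11.78 in duct and 1.594 to 17.7 in TEB, with nipple minus duct at 1.58 ± 0.73 (adjusted p = 0.33). *Lrp6* had an adjusted p of 0.59 across locations. The receptor *Fzd1* had 0 UMIs in all 4 nipple fragments, 37 in duct and 12 in TEB. The duct rate was 3.421 times a floor of 3 UMIs over the nipple sums, and the edgeR adjusted p was 0.19 across locations when no filter was used. *Sfrp1* had 18 UMIs in nipple ER+ luminal-like cells, fewer than the estimate of 41.9 from other wells, so this level is not told from background.

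In ER- luminal-like cells only *Fzd1* passed the filter, and 0 of 1 member changed, where 4.10% of 5706 genes changed across locations. DESeq2 also called 0 there, and 0 members had an unadjusted p under 0.05. *Fzd1* ranged from 0 to 66.99 CPM in nipple, 3.165 to 75.26 in duct and 1.556 to 45.71 in TEB, with overlap of all 3 (adjusted p = 0.86, edgeR). *Axin2* had 0 UMIs in 178 cells, which allows a share of cells with a UMI of up to 1.69% by the same limit of 3 counts.

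**Figure D4:**
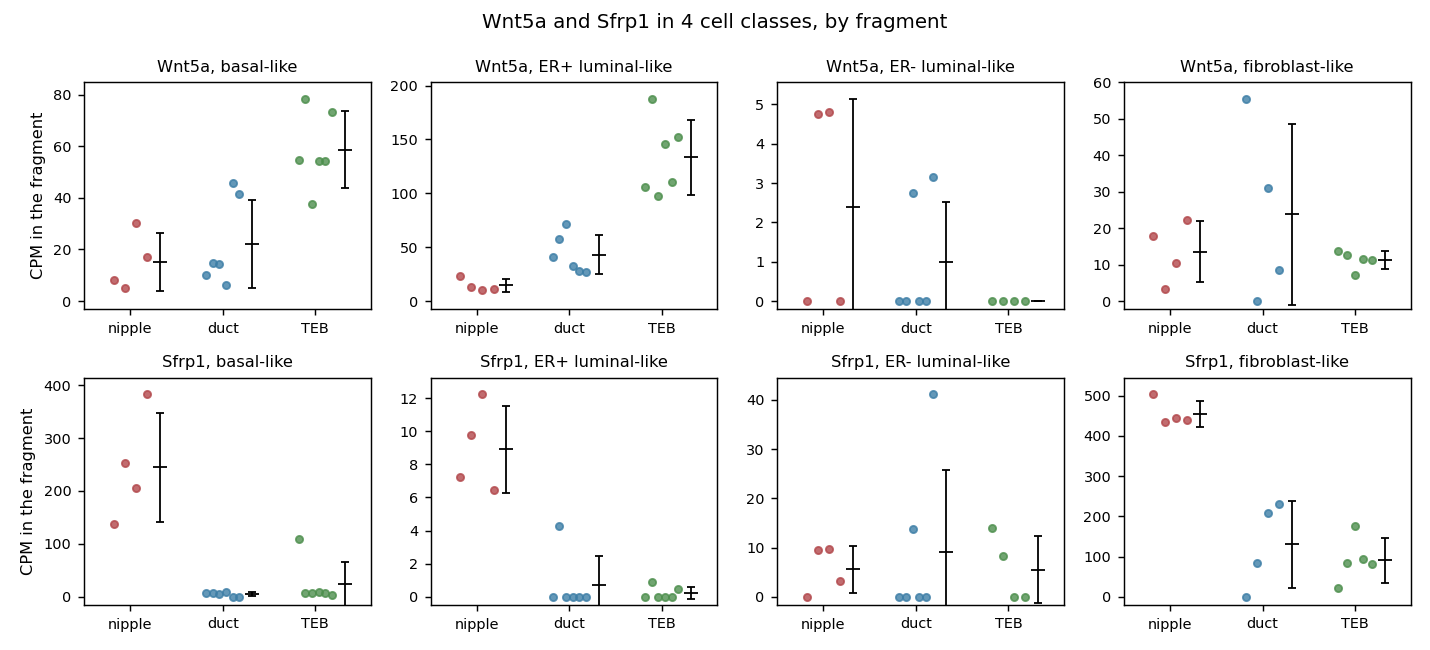
CPM of Wnt5a (top) and Sfrp1 (bottom) in each fragment (points) of nipple, duct and TEB for basal-like, ER+ luminal-like, ER- luminal-like and fibroblast-like cells, with the mean and SD beside the points; bars are clipped at the bottom of the axis and each panel has its own scale. Wnt5a in ER+ luminal-like cells separates all 3 locations, and Sfrp1 in nipple stands above duct and TEB in both basal-like and fibroblast-like cells.

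In fibroblast-like cells 5 members were tested and 0 changed across locations, where 1.70% of 8489 genes changed; 1 member had an unadjusted p under 0.05, and DESeq2 called 1 member. That gene was *Sfrp1*, at 503.8, 434.2, 445 and 438.8 CPM in nipple, 0, 84.41, 207.7 and 229.8 in duct and 20.56, 83.15, 177.1, 92.92 and 82.72 in TEB. Every nipple fragment was above every other fragment, as in basal-like cells. Nipple minus TEB was 2.32 ± 0.62 (adjusted p = 0.093, edgeR; 1.54% of genes changed) and nipple minus duct 1.7 ± 0.66 (adjusted p = 0.36). Other choices moved the first below the threshold, with adjusted p of 0.0031 in DESeq2 and 0.015 for fragments with at least 10 cells, as did leaving out duct fragment 32 (0.0031) or TEB fragment 33 (0.045). The class was made of different clusters by location, with 86 of 116 nipple cells in cluster 4 and 64 of 98 TEB cells in cluster 9. Pooled *Sfrp1* was 470.3 CPM in cluster 4, 236.4 in cluster 7, 179.1 in cluster 10 and 46.87 in cluster 9.

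The sparser genes of fibroblast-like cells did not pass the test. *Axin2* had 25, 0, 10 and 14 UMIs in the 4 nipple fragments, 0 in all 4 duct fragments and 1 in the 5 TEB fragments. All 49 nipple UMIs were in 15 cells of cluster 4, which is 40.5% of the *Axin2* UMIs in the whole data set. The nipple rate was 39.66 times the TEB rate (6.793 to 1598) and 3.559 times the floor of 3 UMIs in duct, but with no filter the adjusted p across locations was 0.11 in edgeR. *Wnt4* went the other way, with 78 UMIs in TEB, 17 in nipple and 0 in duct. Its TEB rate was 5.669 times that of nipple (3.324 to 10.22) and 7 times the floor of 3 UMIs in duct, and the edgeR adjusted p was 0.093 with no filter. TEB fragment 33 gave 46 of the 78 UMIs, from 2 cells. *Lgr4* had 1 UMI in duct against 35 in nipple and 52 in TEB (adjusted p = 0.55). *Fzd1*, *Lrp6* and *Wnt5a* had adjusted p of 0.96, 0.76 and 0.9 across locations. The 43 *Wnt5a* UMIs of TEB were below the estimate of 83.7 from other wells, which rests here on epithelial and myeloid markers.

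Whether the location pattern differed between classes was tested as an interaction with the fragment as a block. Against ER+ luminal-like cells 0 of 9 members differed (5.73% of 10591 genes), against ER- luminal-like cells 0 of 7 (2.28% of 9356) and against fibroblast-like cells 0 of 8 (2.81% of 10033), with 1, 2 and 1 members at an unadjusted p under 0.05. *Wnt5a* had an adjusted p of 0.64 for basal-like against ER+ luminal-like cells, where the basal difference of TEB minus nipple was smaller by 1.15 ± 0.75 on the log2 scale. *Sfrp1* had 0.074 against ER- luminal-like cells and 0.64 against fibroblast-like cells, and *Wnt4* had 0.14 against ER+ luminal-like cells. None of the called location differences of the members is therefore shown to belong to 1 class. For *Sostdc1*, with 95.2% of its UMIs in basal-like cells, the few UMIs of the other classes leave the test little to compare.

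For the 3 genes that changed, shares of cells with a UMI were also compared. *Sfrp1* had a UMI in 59.8% of nipple, 6.09% of duct and 18.3% of TEB basal-like cells, and in 43.3%, 2.61% and 7.32% after thinning. *Sostdc1* had 4.12%, 8.7% and 56.1%, and 3.09%, 6.09% and 42.7% after thinning. *Wnt5a* had 10.3%, 13.9% and 50% in basal-like cells, but 5.15%, 6.96% and 17.1% after thinning. In ER+ luminal-like cells *Wnt5a* had 18.6%, 38.4% and 66.3%, and 6.98%, 14.2% and 36.6% after thinning. Myeloid-like cells had a UMI of *Sfrp1* in 2.56%, of *Wnt5a* in 1.28% and of *Sostdc1* in 0 of 78 cells, at a median of 18966 UMIs against 25194 in basal-like and 36258 in ER+ luminal-like cells. Of the 46 TEB basal-like cells with *Sostdc1*, 26 also had *Wnt5a* (56.5%), against 41.7% of the rest, which were shallower at a median of 36966.5 against 49212.5 UMIs.

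**Figure D5:**
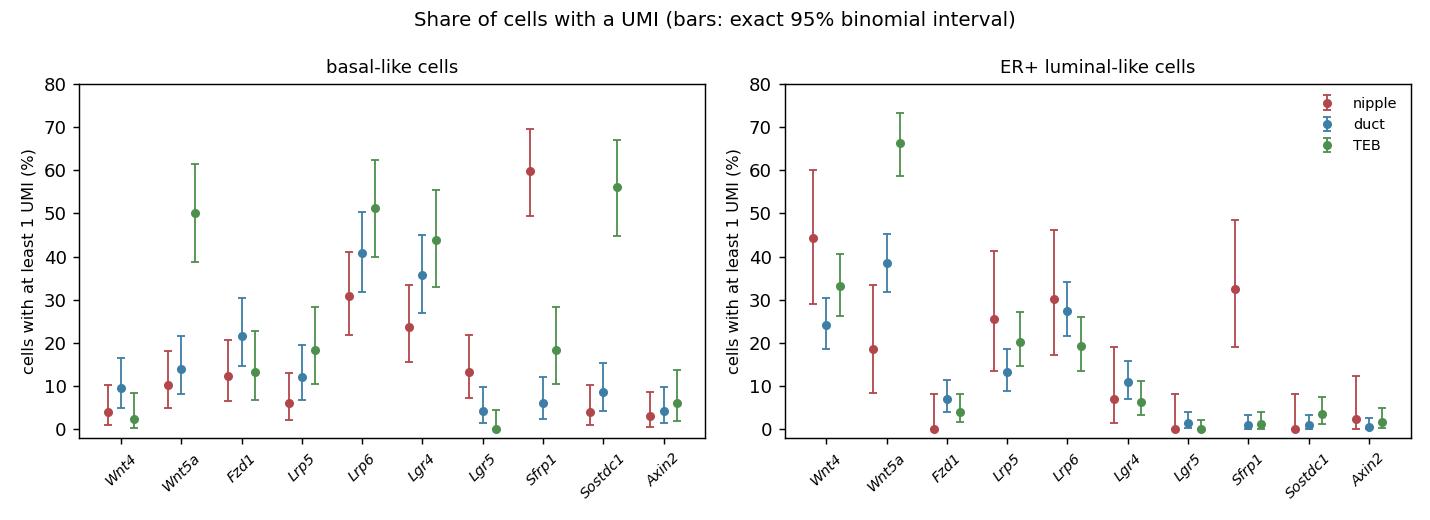
Share of basal-like and ER+ luminal-like cells with at least 1 UMI of each Wnt gene in nipple, duct and TEB (points), with exact 95% binomial intervals that cover counting error only and are not thinned for depth. Sfrp1 and Lgr5 are highest in nipple basal-like cells, Sostdc1 in TEB basal-like cells, and Wnt5a in TEB in both classes.

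The rest of the pathway was read from a list of 73 other Wnt genes, of which 70 have a row. In basal-like cells 9 of the 33 tested changed across locations, against the 20.6% of all genes above. With the members, all 4 tested ligands changed (*Wnt5a*, *Wnt6*, *Wnt10a* and *Wnt11*), as did 5 of 6 secreted or membrane inhibitors (*Sfrp1*, *Sfrp2*, *Sostdc1*, *Dkk3* and *Wif1*). Among the rest, 1 of 7 receptors changed (*Ptk7*), 1 of 9 cytoplasmic genes (*Gsk3b*), 1 of 7 nuclear effectors (*Tcf7l2*) and 0 of 2 R-spondin receptors. Only genes past the filter on low counts are counted, and a sparse gene can pass it through the location where it is high. *Wnt6*, with 0 UMIs in nipple, is such a gene. The list was also chosen with earlier results of these data known, so these shares are a description and are not set against each other.

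These ligands and inhibitors differed in which location stood highest. *Wnt10a* was highest in duct, at 167.9 ± 60.71 CPM (SD, n = 6) against 43.08 ± 25.29 in nipple (n = 4) and 7.36 ± 8.149 in TEB (n = 6), and all 3 differences passed the test (duct minus TEB 4.39 ± 0.58, adjusted p = 9.4e-07, edgeR). *Wnt6* had 0 UMIs in all 4 nipple fragments, against 135 in duct and 233 in TEB (adjusted p = 0.00062 against duct and 0.00013 against TEB). In the interaction test its pattern differed from that of fibroblast-like cells (adjusted p = 0.003, edgeR), which had 43 *Wnt6* UMIs in nipple, 6 in duct and 3 in TEB. *Wnt11* was at 31.29 ± 12.32 CPM in nipple, 35.61 ± 20.87 in duct and 6.074 ± 6.208 in TEB. *Wif1*, a secreted Wnt-binding inhibitor, was low in duct at 10.04 ± 11.05 CPM and high in both nipple (128.7 ± 48.47) and TEB (184.4 ± 73.85). *Sfrp2*, the relative of *Sfrp1*, shared its nipple maximum at 57.64 ± 9.026 CPM, against 10.37 ± 8.161 in duct and 4.304 ± 1.873 in TEB. *Sfrp2* is also a gene of fibroblast-like cells (387.5 ± 116.5 CPM in nipple), and the fibroblast markers given above were also higher in nipple. Estimates of UMIs from other wells are 30.2 of its 115 UMIs in nipple, 22.2 of 30 in duct and 24.9 against 16 in TEB. The levels in duct and TEB are therefore not told from background. *Dkk3* was at 157.8 ± 37.44, 99.03 ± 66.61 and 42.39 ± 31.74 CPM in nipple, duct and TEB. *Tcf7l2*, a DNA-binding partner of beta-catenin, stood in the opposite order at 41.47 ± 28.9, 80.87 ± 26.93 and 177.6 ± 48.75 CPM. *Ptk7*, a Wnt coreceptor, was at 55.99 ± 5.37, 61.04 ± 32.1 and 129.3 ± 26.54 CPM. Outside the basal class 0 of 27 other list genes changed across locations in ER+ luminal-like cells by edgeR, where 5.56% of all genes did. In ER- luminal-like cells 0 of 16 changed, where 4.10% of all genes did. In the pair of nipple and TEB, 1 of the 27 was called in ER+ luminal-like cells, where 5.57% of all genes were. This was the receptor *Ror2*, named after its values were seen and lower in nipple (adjusted p = 0.023, edgeR). With 132 UMIs in TEB, 52 in duct and 1 in nipple, it passed the filter through the locations where it is high. In fibroblast-like cells 1 of 35 changed across locations, where 1.70% of all genes did. This was *Wnt2*, at 148.3 ± 17.41 CPM in TEB (n = 5) against 30.22 ± 7.496 in nipple (n = 4) and 37.35 ± 25.32 in duct (n = 4).

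Finally, the genes with the most similar pattern were sought over 66 sums of a class in a fragment, among 8010 genes, by Pearson's r of log2(CPM + 1). The sums share fragments and differ in depth, so r is a description. *Wnt5a* was most like *Fgfr2* and *Tspan9* (both r = 0.72) and *Wnt4* like *Stc2* and *Pls1* (both 0.7). *Sfrp1* was most like *Scn7a* (0.82) and *Layn* and *Hmcn1* (both 0.81), and *Sostdc1* like *Gpx2* (0.8), *A230065H16Rik* (0.79) and *Lama1* (0.78). *Lgr4* was most like *Tpm2* (0.74), *Fzd1* like *Cryab* (0.73) and *Lrp6* like *Xpot* (0.66). *Lrp5* and *Axin2* reached only 0.54, with *Prom2* and *Aqp1*. Among the members themselves, the highest were *Lgr4* with *Sostdc1* (0.59) and *Wnt4* with *Wnt5a* (0.52). *Lgr5*, with 75 UMIs, was left out.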

How the data were processed

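Raw UMI counts per gene and cell were deposited by the authors without normalization. Their processing notes name Trim Galore, FastQC, UMI-tools, STAR and featureCounts with mm10, and the versions and the strand setting are not given in the sources used here. All 16 fragments were used, and 67 spike-in rows (0.758% of UMIs) stayed out of the tests. Cells were kept with at most 5% ERCC reads, 5000 to 120000 UMIs and 200 to 6000 genes, the limits of the study. Seurat 5.3.0 in R 4.3.3 clustered them (2000 variable genes, 14 principal components, resolution 0.5, after regressing out gene number, cell cycle and the spike-in percentage). A cluster took the best scoring class among the populations the study names, with at least 3 markers detected, a share of markers above their mean of over 0.5 and no more of the 10 leading genes from another list. That limit on the candidates was set once the clusters were known. Doublets were not called.

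Counts were summed per fragment and class (5 cells or more), which gave 302554 to 1210315 UMIs per basal-like sum, 315342 to 2061534 per ER+ luminal-like, 227131 to 726350 per ER- luminal-like and 89639 to 1513801 per fibroblast-like sum. The tests were done in edgeR 4.0.16 with all locations in 1 model (filterByExpr, TMM scaling, quasi-likelihood fit with the robust option, Benjamini-Hochberg adjustment over all genes tested, threshold 0.05). For a gene at 0 in a location, the rate of the higher location is divided by a floor of 3 UMIs over the sums at 0. That ratio leaves out the interval of the higher rate. Intervals (exact, 95%) cover counting error only. UMIs from other wells were estimated from fibroblast and myeloid markers in the basal-like and luminal-like classes. In fibroblast-like cells they were estimated from epithelial and myeloid markers. The estimate uses the median marker share over the cells of a class in a fragment. It is too high where the cells themselves express those markers. It can be too low where a few cells hold most of the RNA from other wells.

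The members, the Wnt list and the marker lists were chosen with earlier results of these data known. Besides the members, the genes named are the other genes of the Wnt list called across locations in a class, up to the 8 with the smallest p, and the 3 genes most like each member with at least 100 UMIs. *Gsk3b*, the ninth of its class, is named within its group. Positions are those of GENCODE M21 (GRCm38). Alternatives were DESeq2 1.42.0, DESeq2 size factors, no filter on low counts, thinning to 5000 UMIs, at least 10 cells, an ERCC limit of 10%, a minimum of 10000 UMIs, resolution 1, no regression, classes from single-cell scores, only the locations compared, a replicate block and leaving out each fragment. The scripts were tested on simulated data.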

Additional observations from a re-analysis of the deposited data

Results flagged for a closer look

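Among 48 groups of 4 to 6 fragments, 4 held a fragment whose gap to its nearest neighbour passed Dixon's 95% critical value. The rate of 1 group in 20 by chance holds for normally distributed values and need not hold for sparse UMI counts. *Sfrp1* was at 109.2 CPM in the basal-like cells of TEB fragment 31, against at most 9.589 CPM in the other TEB fragments, from 56 UMIs in 6 of 13 cells. *Wnt4* was at 3.252 CPM in the ER+ luminal-like cells of nipple fragment 22, which is 1 UMI in 8 cells, against 46.94 CPM or more in the other nipple fragments. *Lgr4* was at 2.807 CPM in the fibroblast-like cells of duct fragment 61, from 1 UMI, with the other duct fragments at 0. *Sfrp1* was at 503.8 CPM in the fibroblast-like cells of nipple fragment 21, against 434.2 to 445 CPM in the other nipple fragments.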

How the results depend on the processing

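In basal-like cells the count of members called, 3, lay between 2 and 4 over 28 alternatives. *Wnt5a* of ER+ luminal-like cells kept its calls in all 28 alternatives of nipple minus TEB and all 29 of duct minus TEB. The 9 other list genes called in basal-like cells became 14 with no filter on low counts, 4 with thinned cells and 4 without cells with both *Krt5* and *Krt18*, and 7 to 11 when a fragment was left out. Their 0 calls in ER+ luminal-like cells became 1 with no filter, in DESeq2, with at least 10 cells, with a minimum of 10000 UMIs and with no regression, and were 0 to 1 when a fragment was left out. In ER- luminal-like cells they became 1 in DESeq2 and were 0 to 1 when a fragment was left out. In fibroblast-like cells the 0 members called became 1 in DESeq2, with thinned cells and with at least 10 cells (0 to 1 when a fragment was left out), and the 1 other gene became 5 with at least 10 cells (1 to 2). The interaction with ER- luminal-like cells went from 0 to 1 with no filter, and that with fibroblast-like cells from 0 to 1 with no filter and with thinned cells. Leaving out a fragment gave 0 to 1 for ER+ and for ER- luminal-like cells.

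*Sostdc1* nipple minus duct in basal-like cells, -0.19 and never past the threshold, changed sign to 0.39 without duct fragment 31, 0.09 without nipple fragment 21, 0.22 without nipple fragment 24, 4.99 without cells with both keratins and 0.28 with at most 1000 CPM of fibroblast markers, and ran from -0.92 to 0.39 over fragments left out. With that fibroblast limit its nipple minus TEB was -3.13 (adjusted p = 0.09, edgeR). *Wnt5a* nipple minus TEB in basal-like cells was -1.98 (adjusted p = 0.05) with at least 10 cells. The *Sfrp1* duct minus TEB call appeared with no filter (-2.34, adjusted p = 0.0036) and with single-cell scores (-2.67, adjusted p = 0.024). The causes were not tested.

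Numbers 31 and 32 are shared by duct and TEB titles, but the labels do not say what a number means, and the correlations of deviations were 0 and -0.01 in basal-like and -0.01 for both in ER+ luminal-like cells. With the number as a replicate block on these 4 fragments, 308 of 5448 genes were called for duct minus TEB in basal-like cells, against 760 in the fit of all fragments, and 183 of 8516 against 144 in ER+ luminal-like cells. *Sostdc1* was then -2.06 (adjusted p = 0.04), *Wnt5a* -2.38 (adjusted p = 0.24) in basal-like and -1.53 (adjusted p = 0.013) in ER+ luminal-like cells. ER- luminal-like and fibroblast-like cells shared fewer than 2 numbers. Clustering without regression was not run for basal-like cells, nor the ER- luminal-like interaction with at least 10 cells, as a location had no fragment left.

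Few cells limit most values: a basal-like sum held 6 to 32 cells, and *Lgr5*, *Axin2*, *Lrp5* and *Wnt4* had too few UMIs there for the filter.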
